A study of Mus musculus with 4 samples.

Results

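The Tfap2 genes encode the AP-2 transcription factors, and 5 of them were read here, Tfap2a, Tfap2b, Tfap2c, Tfap2d and Tfap2e. The RNA came from whole brain at embryonic day 14.5, the mice were of a mixed 129SvJ/C57Bl/6J background, and 4 Affymetrix arrays of 1 colour were used. The 2 double-knockout arrays came from embryos that carried Brn4::Cre with Sox4 flox/flox and Sox11 flox/flox, and the 2 control arrays from embryos with Sox4 flox/flox and Sox11 flox/flox and no Cre named. The design text calls the controls wild type, whereas their labels give the floxed alleles, and the series title names the spinal cord, whereas all 4 labels give whole brain. Brn4::Cre is named for the gene Pou3f4 (Brn4), the labels do not say in which cells it was active, and a whole brain may also hold cells that it did not reach. The labels call the arrays biological replicates without giving the number of embryos per array, so the errors below refer to arrays, not to a known number of embryos. Each error is the SE of a fit with the package limma. That fit draws a probe set's own spread between arrays towards the spread of probe sets of similar signal. Members were chosen by symbol: every probe set, a group of probes read as 1 value, whose platform annotation gave exactly 1 of these names was taken. There were 10 such probe sets among 45037, and the 5 genes stand among 18193 gene symbols on the array. The family was proposed with the fall of Tfap2a in these arrays known, so its differences between the genotypes are given as a description and not as a test.

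AP-2 proteins bind GC-rich DNA as dimers, through a basic region and a helix-span-helix domain, and family members can pair with each other. Tfap2a and Tfap2b act in the neural crest and its derivatives and, in the nervous system, in inhibitory interneurons that arise from Ptf1a-expressing progenitors of the dorsal hindbrain, cerebellum, spinal cord and retina. Tfap2c is best known from the trophoblast and germ cells and is also used by cortical progenitors, Tfap2d is known from the dorsal midbrain, and Tfap2e from the olfactory bulb.

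In double-knockout brains the signals of Tfap2a (at all but 1 of its probe sets), Tfap2b and Tfap2d were lower than in controls. The signals of Tfap2c were higher, and the mean signal of Tfap2e was too low for it to be tested. The bases before the start sites of the 3 genes that were lower are shown because they are the members that moved the same way. They are the 250 bases before 1 RefSeq start of each gene in GRCm38.p6, 5′ to 3′ on the gene's strand, with each CG dinucleotide in capitals. The Tfap2a window is chr13:40734921-40735170 on the minus strand, the Tfap2b window chr1:19211804-19212053 on the plus strand, and the Tfap2d window chr1:19102772-19103021 on the plus strand.
Tfap2a: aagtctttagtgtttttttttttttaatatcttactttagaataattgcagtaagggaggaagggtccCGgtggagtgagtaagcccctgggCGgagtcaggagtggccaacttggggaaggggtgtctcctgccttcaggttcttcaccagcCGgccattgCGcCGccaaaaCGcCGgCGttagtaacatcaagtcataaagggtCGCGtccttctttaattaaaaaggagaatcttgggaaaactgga
Tfap2b: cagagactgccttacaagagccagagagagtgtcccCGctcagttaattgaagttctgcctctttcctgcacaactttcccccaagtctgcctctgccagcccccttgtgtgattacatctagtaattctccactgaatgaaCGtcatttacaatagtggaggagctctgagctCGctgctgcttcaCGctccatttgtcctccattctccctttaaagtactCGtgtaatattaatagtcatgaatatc
Tfap2d: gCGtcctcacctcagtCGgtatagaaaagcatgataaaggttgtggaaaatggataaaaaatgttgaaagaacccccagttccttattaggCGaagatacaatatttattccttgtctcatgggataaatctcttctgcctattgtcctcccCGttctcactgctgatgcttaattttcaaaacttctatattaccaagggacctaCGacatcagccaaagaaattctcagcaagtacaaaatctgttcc
The Tfap2a and Tfap2b windows lie inside the span that RefSeq gives the gene, and the Tfap2d window lies before it. The Tfap2a window held 10 CG dinucleotides and the Tfap2b and Tfap2d windows 5 each, where the median of all 32851 RefSeq windows of this length was 6. The letters ACAAAG, which Sox proteins can bind, a second such core, written ACAATG, and the AP-2 palindrome (GCC and GGC with 3 bases between them) were searched for on both strands. None of these was present in any of the 7 windows that the RefSeq table holds for Tfap2a, Tfap2b, Tfap2d and Tfap2e, while 16.5% of all windows held the first core, 10.7% the second and 13.7% the palindrome. This says only that these letters are not in these windows, and other spacings of GCC and GGC were not searched for.

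Array quality and genotype were examined across the whole table. The trimmed mean signal was the same on each array, and median signals were 263.2 and 268.6 on the double-knockout arrays against 286.7 and 262.0 on the control arrays. Log2 signals of the probe sets kept correlated with r = 0.987 between the double-knockout arrays and 0.984 between the control arrays, and with r of 0.960 to 0.963 across genotypes, over probe sets that are not independent. All 6 Sox11 probe sets fell, and of the 6 Sox4 probe sets kept 4 fell, 1 rose and 1 did not pass, so 1 Sox4 probe set went against the label of a Sox4 knockout. Pou3f4, the gene that gives the Cre its name, did not pass at either probe set. Here and below, rose and fell mean an adjusted p under 0.05 in limma's fit across 27022 probe sets, those with a mean log2 signal above the 40th percentile. Changes are double knockout minus control on the scale log2(signal + 16), which understates the change of dim probe sets. All 3 forebrain markers above the filter, Emx2 (0.01), Dlx2 (0.04) and Neurod6 (0.23), did not pass, with a summed signal of 17725 and 18789 in double knockouts against 16492 and 15698 in controls. Of 4 midbrain and hindbrain markers above it, Otx2 (-0.51), En2 (-0.74) and Hoxb3 (-1.12) fell and Hoxb2 did not pass, where 11% of all genes fell. The summed signal of these and of En1 and Egr2, which were under the filter, was 5179 and 5265 in double knockouts against 8551 and 8380 in controls. The part of these regions in the lower signals of Tfap2a, Tfap2b and Tfap2d was not tested. The choroid plexus genes Clic6 and Folr1 rose and Otx2, listed there too, fell, while Ttr and Kcnj13 did not pass. The Clic6 call was lost without knockout 2 (0.42), and that of Folr1 when knockout 1 (0.56) or knockout 2 (0.58) was omitted. Of the retina and lens markers, Crx was above the filter and did not pass, and Cryaa, Cryba1 and Rax were under it.

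Of the 10 Tfap2 probe sets, 9 were kept, 5 of them fell and 3 rose. Among all probe sets kept, 23.2% were called, 11.6% as lower and 11.7% as higher. The arrays of the 2 genotypes did not overlap at 8 of the 9, and at 62.9% of all probe sets kept. With knockout 1 left out, 4 of them fell and 1 rose. No weight is put on these counts, since the family was proposed from this contrast. In whole brain, fewer cells of a type and less RNA per cell cannot be told apart. The plot of signals by array shows all 10.

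**Figure D1:**
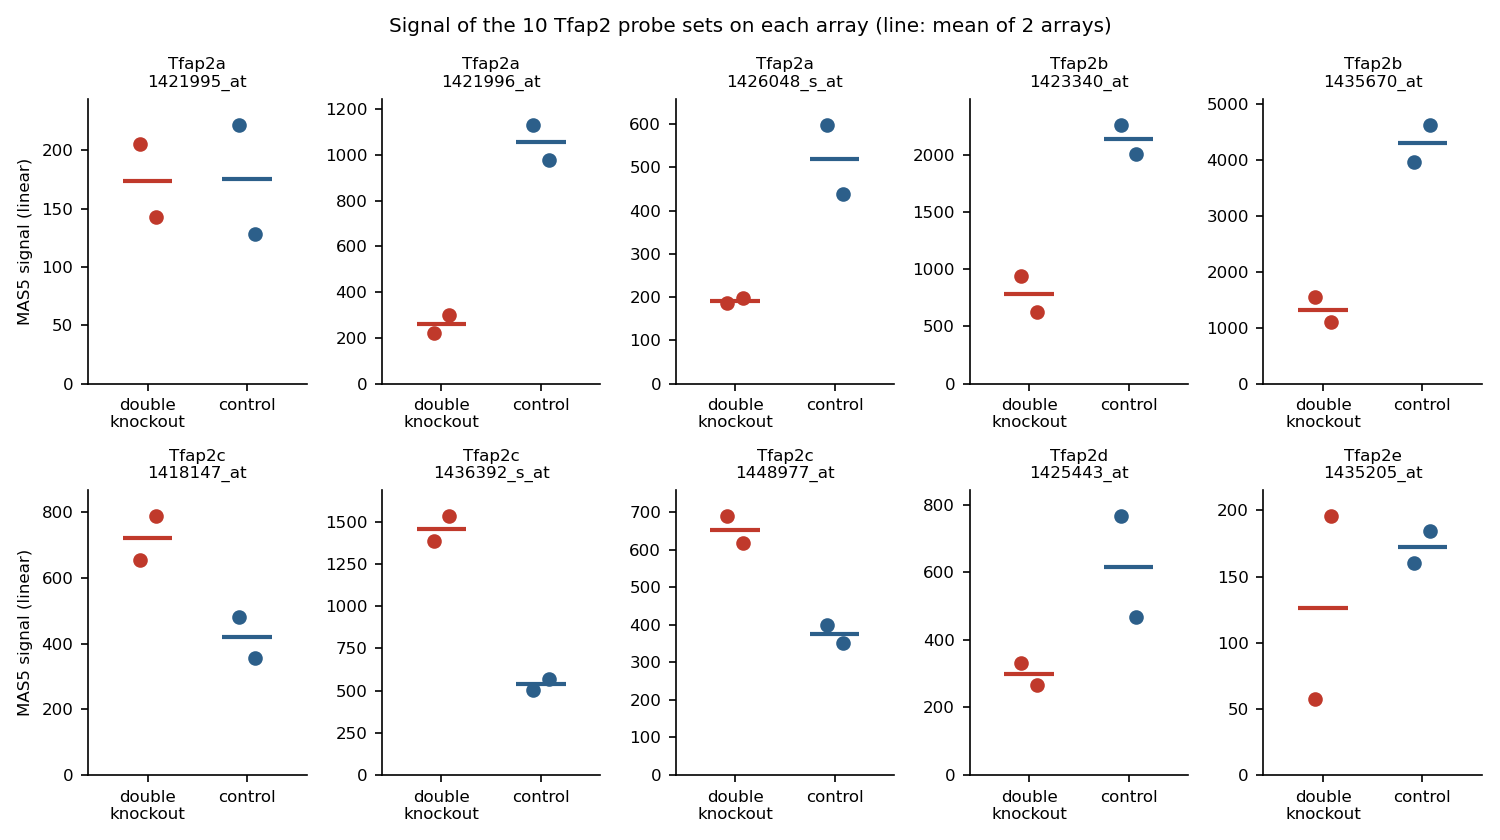
MAS5 signal (linear scale, starting at 0) of each Tfap2 probe set on the 2 double-knockout arrays (red, left) and the 2 control arrays (blue, right) of each panel; points are arrays and lines the mean of 2. The double-knockout points lie below the control points in both Tfap2b panels, the Tfap2d panel and 2 of the 3 Tfap2a panels, and above them in all 3 Tfap2c panels; panels have their own axes, because levels of different probe sets are not comparable.

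Tfap2a, which directs neural crest and interneuron development, was lower at 2 of its 3 probe sets. At 1421996_at the signal was 221.6 and 301.1 on the double-knockout arrays, against 1131.9 and 978.6 on the control arrays. Both control arrays thus lay at more than 3 times either double-knockout array. The log2 change was -1.96 ± 0.19 (SE, n = 2 each), a fall of 3.89-fold and the 29th largest fall of the 27022 probe sets kept. At 1426048_s_at, whose suffix marks probes that can match related transcripts, the signal was 185.3 and 197.5 in double knockouts, against 598.7 and 439.4 in controls. The groups were again apart, with a log2 change of -1.35 ± 0.22. The third probe set, 1421995_at, read 205.1 and 143.0 in double knockouts, against 222.0 and 128.1 in controls. These arrays overlapped, the log2 change was 0.02 ± 0.33, and the mean log2 signal of 7.54 was just above the filter at 7.41. Its sign turned with the array left out, at -0.34 without control 2 and -0.22 when knockout 1 was omitted, against 0.26 without knockout 2 and 0.38 when control 1 was omitted. The platform table assigns 1421995_at and 1421996_at to the same transcript accession. Probe positions were not used here, so it is not known which part of the transcript each probe set reads.

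Tfap2b, the paralogue that shares interneuron and neural crest sites with Tfap2a, was lower at both probe sets. At 1435670_at the signal was 1553.3 and 1094.5 in double knockouts, against 3965.5 and 4632.2 in controls, so that the highest double-knockout array read less than the lowest control array. The log2 change was -1.70 ± 0.16 (SE, n = 2 each), a fall of 3.26-fold and the 39th largest among the probe sets kept. At 1423340_at it was 942.4 and 625.8 in double knockouts, against 2267.4 and 2011.3 in controls, with a log2 change of -1.46 ± 0.18. The probe sets of this gene gave similar changes, their within-array difference moving by -0.25 on the log2 scale between the genotypes, and knockout 2 was the lower of the double-knockout arrays at each.

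Tfap2d, a factor of the dorsal midbrain, lies next to Tfap2b on chromosome 1, with no protein-coding gene between them in the RefSeq table. Its single probe set, 1425443_at, read 330.4 and 267.5 in double knockouts, against 766.0 and 468.3 in controls. The groups were apart, but the control arrays differed by more from each other than the lower one did from knockout 1. The log2 change was -0.97 ± 0.24 (SE, n = 2 each), a fall of 1.96-fold. The call was lost when control 1 (-0.63), knockout 1 (-1.12) or knockout 2 (-0.83) was left out, and also when no signal filter or no variance trend was used, with the change itself at -0.97 in both.

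Tfap2c, the family member of trophoblast, germ cells and cortical progenitors, was higher at all 3 probe sets. At 1436392_s_at the signal was 1384.9 and 1533.8 in double knockouts, against 505.4 and 568.4 in controls, with little spread within either genotype. The log2 change was 1.42 ± 0.14 (SE, n = 2 each), a rise of 2.67-fold and the 119th largest rise of all probe sets kept. At 1448977_at it was 689.3 and 618.0 in double knockouts, against 400.2 and 352.6 in controls, and the log2 change was 0.77 ± 0.17. At 1418147_at it was 655.6 and 787.2 in double knockouts, against 480.8 and 357.2 in controls, with a log2 change of 0.77 ± 0.19. The groups did not overlap at any of the 3, while 1436392_s_at changed by 0.65 more on the log2 scale than 1418147_at and by 0.64 more than 1448977_at. The suffix of 1436392_s_at marks probes that can match related transcripts, and the part of this in its larger change was not tested. The call at 1418147_at was lost without knockout 1 (0.90), without knockout 2 (0.64), and in the fits with no signal filter or no variance trend, and that at 1448977_at without knockout 1 (0.69).

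Tfap2e, known from the olfactory bulb, had 1 probe set, 1435205_at, under the signal filter. It read 57.6 and 195.6 in double knockouts, against 160.4 and 184.6 in controls. The double-knockout arrays differed by more than 3-fold and enclosed both controls, and with no filter the log2 change was -0.59 ± 0.51. At this signal no difference was detectable, and the table holds no detection calls by which the gene could be called absent.

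**Figure D2:**
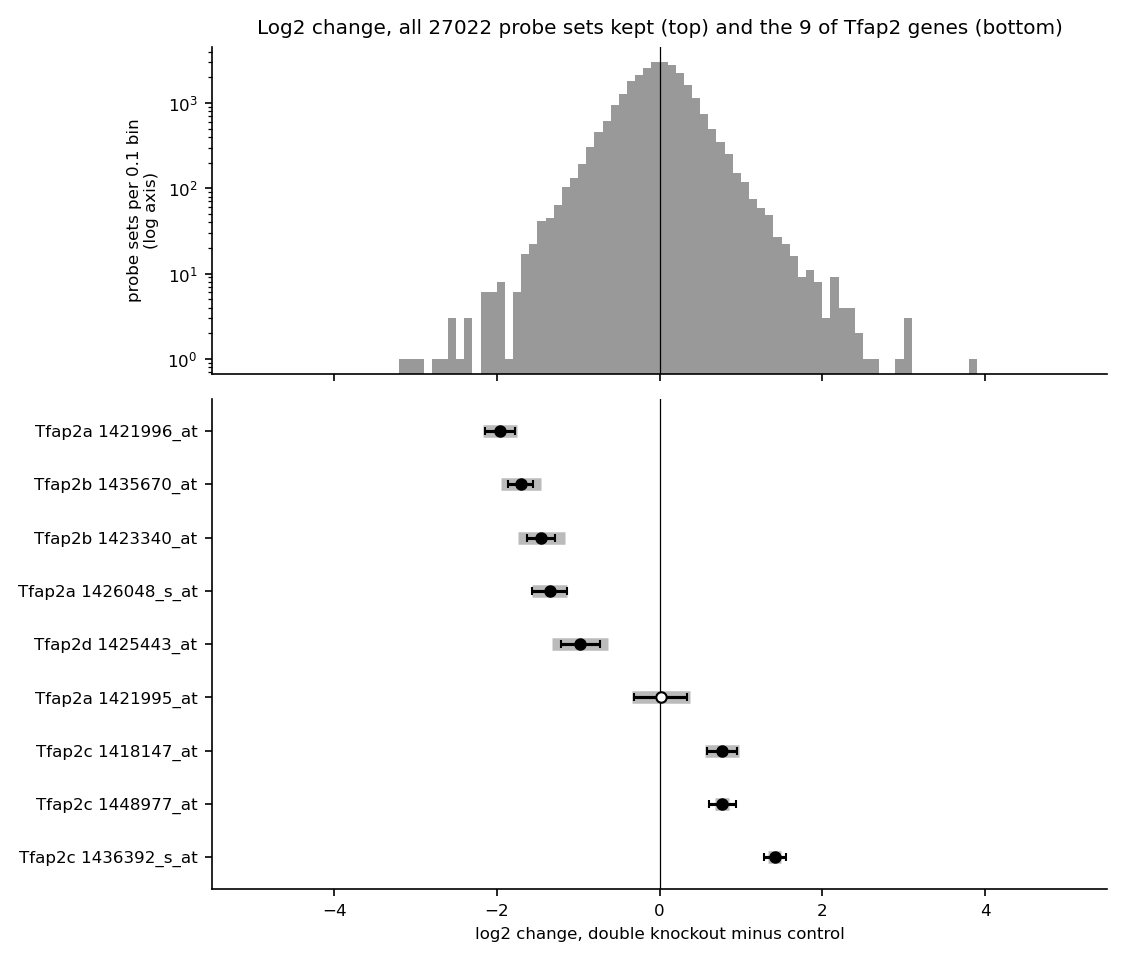
Log2 change, double knockout minus control, of all 27022 probe sets kept (top, number per bin on a log axis) and of the 9 Tfap2 probe sets kept (bottom; points with SE, filled where past the threshold; grey bars, lowest to highest value with each array left out). The 5 falls lie between -0.97 and -1.96 and the 3 rises between 0.77 and 1.42, and the open point, Tfap2a 1421995_at, lies at 0.02.

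The probe sets nearest in pattern to each member's brightest one were found by the root mean square distance of log2 values over the 4 arrays, each centred on its own mean. For Tfap2a 1421996_at the nearest was 1449370_at of Sox4, a gene targeted in these embryos, at a distance of 0.11, with 673.1 and 1114.2 in double knockouts against 3706.2 and 3331.3 in controls. It was followed by both probe sets of B3gnt5, a glycosyltransferase, 1450307_x_at of Macroh2a3, a histone variant, and 1425840_a_at of Sema3f, a secreted guidance cue, at up to 0.14. For Tfap2b 1435670_at the nearest were probe sets of Pcdhb22, a clustered protocadherin, Slc25a27, a mitochondrial carrier, Fgf9, a growth factor, Shd and Tmem44, at 0.09 to 0.14. For Tfap2d 1425443_at they belonged to Gm15527, Peli1, Smox, Lrrc49 and Scmh1, at 0.04 to 0.10. For Tfap2c 1436392_s_at they belonged to Tmem176a, Vrk2, Angpt1, a ligand of the endothelial receptor Tie2, Cmpk2 and Cd300a, a receptor of myeloid cells, at 0.04 to 0.08. All 6 microglia and macrophage markers measured also rose, where 16.3% of all genes rose at their brightest probe set. Their summed signal was 20258 and 18161 in double knockouts against 5011 and 5876 in controls, and the part of these markers in the Tfap2c values was not tested. Summed signals, above and below, take every listed gene on the array, under the filter or not, and each sum follows its brightest genes. Among the members' brightest probe sets, Tfap2a and Tfap2b lay 0.38 apart, Tfap2b and Tfap2d 0.49, and Tfap2a and Tfap2d 0.58, while Tfap2c lay 1.24 to 1.70 from the other 3. Distances over 4 arrays describe these arrays only.

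Among proteins that bind or restrain AP-2 factors, 2 of 10 genes measured fell, 1 rose and 7 did not pass, where 27.3% of all 12489 genes were called at their brightest probe set. The median log2 change of the list was -0.05, against 0.06 over all genes. Those that fell were Kctd1 and Kctd15, BTB-domain proteins that repress AP-2 activity. Kctd1 read 694.1 and 657.0 in double knockouts, against 1111.3 and 1102.4 in controls (log2 change -0.70 ± 0.13, SE, limma adjusted p = 0.00421). Kctd15 read 2827.4 and 2505.7 in double knockouts, against 3335.6 and 3363.8 in controls (-0.33 ± 0.10, limma adjusted p = 0.0378). The groups were apart for both, as at 62.9% of all probe sets kept. The Kctd15 call was lost without control 1 (-0.34), control 2 (-0.32) or knockout 2 (-0.24). Npm1, a nucleolar protein that can act as an AP-2 corepressor, rose by a log2 change of 0.22 and lost its call without control 1 (0.20), control 2 (0.24) or knockout 2 (0.20). With control 1, control 2 or knockout 2 left out, 1 gene of the list was called. The coactivators Cited2 (0.02), Crebbp (-0.09) and Ep300 (-0.11) did not pass.

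Genes described as AP-2 targets in other tissues included 4 that rose among 11 measured, and 7 did not pass. None fell in limma's fit, also at an unadjusted p under 0.05. The median log2 change of the list was 0.27, against 0.06 over all genes, of which 16.3% rose and 11% fell. The largest rise was that of Apoe, a lipid carrier, at 5908.8 and 5183.7 in double knockouts against 1380.1 and 1698.6 in controls (log2 change 1.84 ± 0.12, SE, limma adjusted p = 1.55e-05). Dct, a pigment enzyme, rose by 1.50, Mcam, an adhesion molecule, by 0.72 and Cdkn1a, a cell cycle inhibitor, by 0.48. Macrophages also make Apoe, and the part of the microglia and macrophage markers, which were higher in double knockouts as given above, was not tested. Mcam lost its call without knockout 1 (0.70) or knockout 2 (0.74), and Cdkn1a without control 1 (0.44) or knockout 1 (0.40), so that 2 of the list were called with knockout 1 left out. Kit, Erbb2, Dbh and Krt5 were among those that did not pass.

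Neurons that use Tfap2a and Tfap2b were read through a list of the Ptf1a lineage and of inhibitory neurons of the dorsal hindbrain, cerebellum and spinal cord. In it 7 genes of 11 fell and 4 did not pass, where 11% of all genes fell, and the median log2 change was -0.96. None rose in limma's fit, also at an unadjusted p under 0.05. Foxp2, a transcription factor that Purkinje cells and other neurons express, read 3325.2 and 2917.5 in double knockouts, against 8701.9 and 9188.9 in controls (log2 change -1.52 ± 0.09, SE, limma adjusted p = 9.63e-06). Gbx1, a homeobox gene of dorsal interneurons, had a log2 change of -1.24, Skor1, a corepressor of dorsal interneurons, of -1.19, and Gbx2, a homeobox gene of the diencephalon and the border of midbrain and hindbrain, of -1.12. The list also holds transmitter genes of inhibitory neurons. Gad1, which makes GABA, fell by 0.24 on the log2 scale and lost its call without control 1 (-0.25), control 2 (-0.23) or knockout 2 (-0.20), while Gad2 (0.13), Slc32a1 (-0.03), the vesicular GABA transporter, and Slc6a5 (-0.11), the glycine transporter, did not pass. Gbx1 lost its call without knockout 1 (-0.75). The signal of Ptf1a itself was under the filter. The summed signal of the list was 20346 and 19023 in double knockouts, against 30310 and 30107 in controls. Levels of different probe sets are not comparable, so this sum follows its brightest genes, and Foxp2 alone made up most of the difference.

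Regulators of the midbrain, the site of Tfap2d, fell at 10 of 13 genes, with 1 that rose and 2 that did not pass. The median log2 change was -0.74, where 11% of all genes fell and 16.3% rose. Gata3, a factor of GABAergic midbrain and brainstem neurons, fell by 2.18 on the log2 scale. Pax7, a factor of the dorsal midbrain, read 356.6 and 230.8 in double knockouts, against 716.0 and 889.5 in controls (log2 change -1.42 ± 0.22, SE, limma adjusted p = 0.00142). Barhl1, a homeobox gene of the hindbrain and midbrain, had a log2 change of -1.06 and Pou4f1, a factor of tectal and sensory neurons, of -0.93, and Barhl1 lost its call without knockout 2 (-0.70). Tal2, a bHLH factor of midbrain GABAergic neurons, rose by 0.71, a call that did not hold without control 1 (0.65), knockout 1 (0.56) or knockout 2 (0.86). Without knockout 1, 7 genes of the list were called in either direction. En2 and Otx2, which fell, also stand among the midbrain and hindbrain markers given above, so these readings overlap. En1, Sox14 and Dmbx1 were under the filter, and Pou4f2 and Helt had no probe set of their symbol alone. The summed signal of the list was 17074 and 15935 in double knockouts, against 23877 and 23400 in controls. The part of these neurons in the lower signals of Tfap2a, Tfap2b and Tfap2d was not tested.

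Genes of olfactory bulb projection neurons, where Tfap2e is known, rose at 6 of 9 genes, fell at 1 and did not pass at 2, where 16.3% of all genes rose and 11% fell, and their median was 0.64 on the log2 scale, against 0.06 over all genes. Among them, the vesicular glutamate transporter Slc17a7 (1.23), Eomes (1.08), a T-box factor of projection neurons and their progenitors, Cdhr1 (0.94), a cadherin of mitral cells, and Lhx2 (0.87), a forebrain homeobox gene, rose, and Tbr1, another T-box factor, fell by 0.47 on the log2 scale. The Slc17a7 call did not hold when knockout 1 (1.25) or knockout 2 (1.20) was left out. Most of these genes are also expressed in the cortex, and the bulb-specific factor Tbx21 was under the filter, as was Tfap2e.

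**Figure D3:**
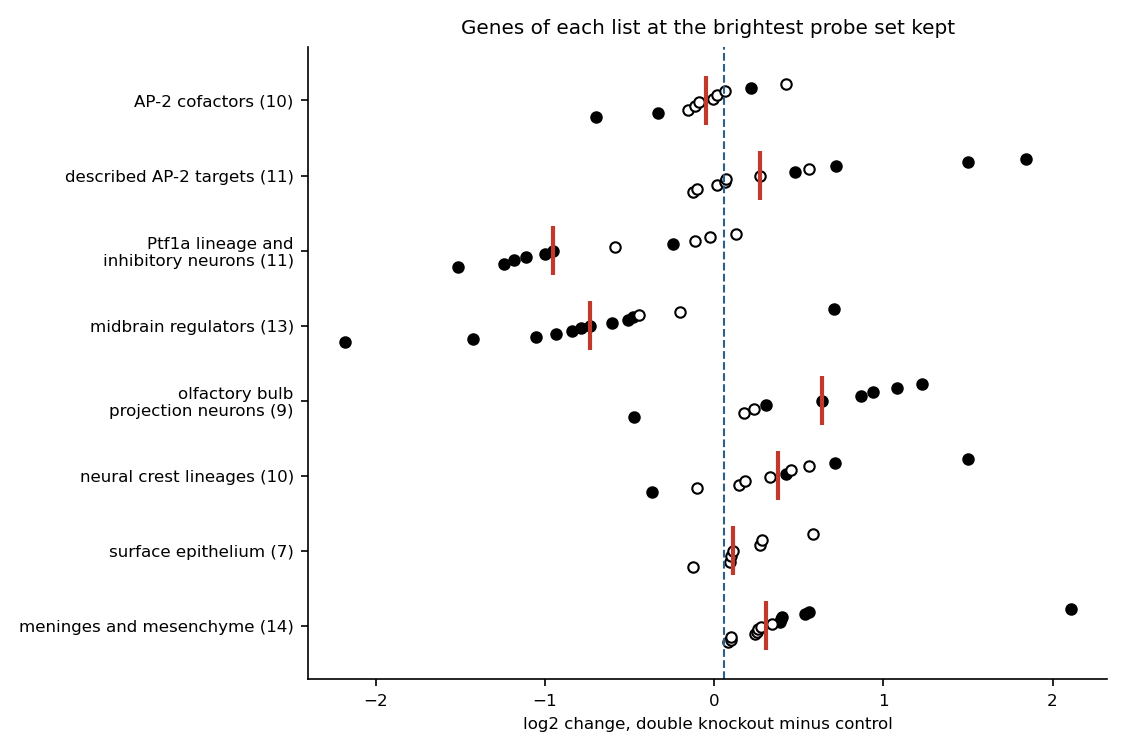
Log2 change, double knockout minus control, of each measured gene of 8 lists at its brightest probe set kept (number of genes in brackets). Filled points passed the threshold, open points did not, the red bar is the list's median and the dashed line the median of all genes, 0.06; the Ptf1a lineage list (-0.96) and the midbrain list (-0.74) have the lowest medians of the 8.

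Cell types outside the brain tissue that express Tfap2 genes were read beside these results. Among surface epithelium genes, which accompany Tfap2a in skin, limma called 0 of 7, and 1 had an unadjusted p under 0.05, and 1 was called with control 1 left out. Of all genes, 27.3% were called at their brightest probe set. The changes of these 7 epithelial genes were -0.13 to 0.58, and 9 others, among them Krt14, Krt15 and Trp63, were under the filter. The summed epithelial signal was 3156 and 3227 in double knockouts, against 2772 and 2792 in controls, and the part of such cells in the Tfap2a values was not tested. The list of neural crest, Schwann cell and melanocyte genes had 3 of 10 higher, 1 lower and 6 not past the threshold, where 27.3% of all genes were called, and the defining gene Sox10 read 194.4 and 174.7 in double knockouts, against 111.0 and 241.9 in controls. Dct (1.50), which also stands among the described targets, Ednrb (0.71), an endothelin receptor, and Ets1 (0.42) rose and Crabp1, a retinoic acid binding protein, fell by 0.37 on the log2 scale. The Crabp1 call did not hold with any array left out (-0.42 to -0.31), nor that of Ets1 without control 2 (0.22), knockout 1 (0.45) or knockout 2 (0.40). With knockout 1 or knockout 2 left out, 2 genes of this list were called. Foxd3, Pmel, Tyr and Tyrp1 were under the filter. The summed signal of this list was 16147 and 17076 in double knockouts, against 12645 and 12033 in controls. Its brightest gene, Ednrb, made up most of this difference, with 7186.3 and 7363.5 in double knockouts against 4501.8 and 4357.4 in controls.

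Meningeal and mesenchymal genes rose at 6 of 14 and did not pass at 8, where 16.3% of all genes rose, and their median log2 change was 0.31, against 0.06 over all genes. None fell in limma's fit, also at an unadjusted p under 0.05. Ccn3, a secreted matrix protein, rose by 2.11, Ptgds, a prostaglandin synthase, by 0.56, Slc6a13, a GABA transporter of the leptomeninges, by 0.53 and Col1a2, a collagen chain, by 0.40. The calls of Ptgds (0.31, 0.48 and 0.65) and Slc6a13 (0.38, 0.54 and 0.53) were lost without control 1, knockout 1 and knockout 2, each in turn, and 3 of the list were called without control 1 or without knockout 2. The list's summed signal was 48177 and 49875 in double knockouts, against 35223 and 37677 in controls. Its part in the Tfap2 values was not tested.

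The protein-coding neighbours of the Tfap2 genes, the nearest pair on either side of each in the RefSeq table, comprised 16 genes outside the family. Among the 8 of them above the filter, 3 rose, 1 fell and the other 4 did not pass, where 16.3% of all genes rose and 11% fell. Around the adjacent pair Tfap2d and Tfap2b on chromosome 1, Defb41, Pkhd1 and Il17a were under the filter, so no neighbour of that pair could be compared. Next to Tfap2a on chromosome 13, Gcnt2, a glycosyltransferase, read 183.6 and 354.7 in double knockouts, against 490.8 and 615.5 in controls (log2 change -1.06 ± 0.27, SE, limma adjusted p = 0.02), a call lost without knockout 1 (-0.61). One gene further, Pak1ip1 rose by 0.30 on the log2 scale, a call lost with any array left out, while Slc35b3 on the other side did not pass (0.07). Beside Tfap2c on chromosome 2, Bmp7, a BMP ligand, had a log2 change of 0.37 and did not pass, and beside Tfap2e on chromosome 4, Ncdn rose by 0.56 and Psmb2 by 0.34. The Psmb2 call did not hold in the fits that left out control 1 (0.28), knockout 1 (0.34) or knockout 2 (0.35).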

How the data were processed

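Total RNA of whole brains, 100 ng per sample per the labels' protocols, was amplified, labelled with biotin and hybridised to Affymetrix arrays. The deposited table gives linear intensities per probe set, for which the submitters' processing notes name MAS5, version 5.0. The trimmed mean (2% at either end) was the same on every array, so a shift of most transcripts in 1 genotype would be removed. No array files, detection calls or probe sequences were used, and the sources used here do not give a genome build of the probe design. With 2 arrays per genotype, precision is limited by their number.

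Groups and replicate numbers came from the sample titles. The 64 array controls were left out. Symbols came from the platform annotation, with 34945 probe sets having 1 symbol, 932 several and 9160 none, and all 5 Tfap2 genes were matched to RefSeq by gene ID. Promoter windows are RefSeq's, build GRCm38.p6. The RefSeq protein sequences of the family were not used here.

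Values were taken as log2(signal + 16). Probe sets with a mean above the 40th percentile (signal 154.6) were fitted with limma 3.58.1 in R 4.3.3 (lmFit, eBayes with a variance trend), with 2 residual and 8.33 prior degrees of freedom and Benjamini-Hochberg adjustment over all 27022. Every adjusted p is limma's. A gene took the value of its brightest probe set kept. Alternatives were quantile normalization, centring on medians, pseudocounts of 1 and 64, no filter or one at the 60th percentile, eBayes with no trend or a robust prior, a threshold of 0.1, a replicate block and each array omitted. The steps were tested on simulated data. The members, the 8 gene lists and the rules were chosen with earlier results of these data known.

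The named genes are all Tfap2 probe sets, Sox4, Sox11, Sox12 and Pou3f4, up to 4 called genes per list by size of change, the neighbours, and the 5 probe sets nearest in pattern to each called member. Tbr1, Tal2, Gad1, the marker genes and the list members named without a call were added after their values were seen. Sox12 rose at 1 of 2 probe sets kept.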

Additional observations from a re-analysis of the deposited data

How the results depend on the processing

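Results were recomputed under 14 alternatives, and the gene lists also with each gene taken as the average over its probe sets. The Tfap2a probe sets 1421996_at and 1426048_s_at, both Tfap2b probe sets and Tfap2c 1436392_s_at kept their direction and call under every alternative that kept them above the filter; their log2 changes ranged from -2.17 to -1.75, -1.57 to -1.14, -1.95 to -1.45 (1435670_at), -1.75 to -1.17 (1423340_at) and 1.33 to 1.50. Tfap2a 1421995_at, never called, ranged from -0.34 without control 2 to 0.38 without control 1 and was -0.22 without knockout 1. With each array left out, 3132 to 5422 probe sets were called in all, against 6277, and 5 to 8 Tfap2 probe sets, 4 to 5 of them lower and 1 to 3 higher, the lowest counts in all being those without knockout 1. At the 60th percentile filter 3 Tfap2 probe sets fell, because Tfap2d and 1426048_s_at were no longer tested, and without the variance trend 3114 probe sets were called in all.

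The gene lists gave these counts of calls with each array left out: 1 to 3 for AP-2 cofactors, 2 to 4 for described targets, 6 for the Ptf1a lineage list, 7 to 11 for midbrain, 5 to 6 for olfactory bulb, 2 to 5 for neural crest, 0 to 1 for surface epithelium and 3 to 6 for meninges. Without the variance trend 1 cofactor, 7 midbrain, 4 olfactory bulb, 2 neural crest and 1 meningeal gene were called, and without a filter 1 cofactor, 2 neural crest and 3 meningeal genes. Median centring called 1 cofactor gene, and 1 surface epithelium gene was called under quantile normalization, median centring, a threshold of 0.1 and the mean of probe sets. Apart from the fewer probe sets at the stricter filter and the fewer arrays, the cause was not tested. The replicate numbers of the labels are not said to mark a shared litter or day, and deviations of the arrays numbered 1 correlated with r = 0.00283 between genotypes. With the replicate block 6844 probe sets were called in all and 8 Tfap2 probe sets, and the count of calls of every list was the same. Dim signals limit Tfap2e and Tfap2a 1421995_at, whose arrays overlap, and Tfap2e is also limited by the spread of its double-knockout arrays.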
